A study of Mus musculus with 4 samples.

Results

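Smooth muscle cells (SMCs) of the ureter arise from the ureteric mesenchyme (UM) next to the epithelium, and WNT ligands from the ureteric epithelium are needed for this program to start. The 10 genes described here encode nuclear factors that drive or restrain SMC gene expression: Srf, the myocardin family genes Myocd, Mkl1 and Mkl2, the teashirt genes Tshz1, Tshz2 and Tshz3, and the MEF2 genes Mef2a, Mef2c and Mef2d. They were chosen by name, and every probe that carries one of these names on the array was taken. This gave 10 of 29924 gene names and 19 of 39429 probes.

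The tissue came from wild-type NMRI mouse embryos at E12.5. Dissected ureters were cultured in serum-free medium for 18 h, either with 10 µM IWP-2 or with the solvent DMSO (2 parts in 1000) as control. IWP-2 inhibits Porcupine, which adds a lipid to WNT proteins without which they stay in the cell, so the treatment acts on all cells of the explant, epithelial and mesenchymal. Each of 4 two-color arrays carried RNA of 1 treated pool and RNA of 1 control pool of ureters, with the treated RNA in red on arrays 1 and 3 and in green on arrays 2 and 4. The labels number the pools of each group from 1 to 4, and the methods give the same number, while other text of the study speaks of a pair of pools. If arrays share pools, p-values are too small. The sex of the embryos is not given in the sources used here.

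SRF binds the CArG box, a short AT-rich element in front of most contractile genes. On its own it activates little, and its partners decide what it does: myocardin (Myocd), made in cardiac and smooth muscle, turns it towards contractile genes, MKL1 and MKL2 do the same once actin polymerization releases them into the nucleus, and ternary complex factors of the ELK group draw it towards growth response genes instead. Teashirt proteins are zinc finger repressors, and TSHZ3 is known as a factor needed for Myocd expression and SMC formation in the mouse ureter. MEF2 proteins are relatives of SRF that serve many muscle and non-muscle programs, with class II histone deacetylases as their best known repressors.

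In this experiment 4 of the 10 regulators were lower after 18 h of IWP-2, and these were Myocd and all 3 teashirt genes. None of the others passed the test in either direction. Tshz3 had the largest mean fall, followed by Myocd, Tshz1 and Tshz2. Srf, Mkl1, Mkl2 and the MEF2 genes had mean changes of at most 0.14 in size on the log2 scale.

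The probes of the genes that changed, and of the family members set against them, show what was measured. All arrays carried the same 60-base probes, each in 4 spots, and their positions are those of the scanner files on the mm9 build. The Myocd probe is shown up to the stop codon in the frame that opens at its base 2, in capitals, and that part maps to the minus strand at chr11:64991947-64991989. The Tshz3 probe (chr7:37557872-37557931, plus strand) and the dimmer of the Tshz2 probes (chr2:169711933-169711992, plus strand) each have 1 reading frame without a stop. The Mef2c probe (chr13:83772788-83775025, plus strand) and 1 of the Mkl2 probes (chr16:13409769-13412310, plus strand) cover 2238 and 2542 bases of the genome with 60 bases, so that they cross a gap of the genomic sequence and read spliced RNA. No annotation of the mm9 build was used here, and no exon or untranslated region is assigned.
Myocd: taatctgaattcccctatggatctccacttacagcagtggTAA
Tshz3: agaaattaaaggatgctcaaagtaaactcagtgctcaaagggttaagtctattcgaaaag
Tshz2: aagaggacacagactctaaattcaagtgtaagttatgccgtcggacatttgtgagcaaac
Mkl2: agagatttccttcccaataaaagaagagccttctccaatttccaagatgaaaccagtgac
Mef2c: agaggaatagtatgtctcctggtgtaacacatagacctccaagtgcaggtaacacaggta

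Levels are given below as log2 of the normalized fluorescence intensity of a channel, and changes as the log2 ratio of IWP-2 over control on an array, with the mean and the SD of 4 arrays. Adjusted p is that of limma with a dye term, corrected over 22455 genes. With 0.05 as the threshold, 15.0% of all genes were lower and 18.1% were higher, and the median ratio of all genes was 0.0011. The 4 regulators among 10 that were lower and the 0 that were higher are to be read against these shares. At an unadjusted p under 0.05, limma placed 4 regulators lower and 1 higher, against 20.3% and 23.7% of all genes. Control channels had median raw intensities of 368 to 711 and treated channels of 385 to 694, and Pearson's r of the ratios across genes was 0.625 to 0.831 for the pairs of arrays. All 6 WNT pathway readouts examined were lower, with a median ratio of -1.58. Markers of the tissue were present: 6 of 6 epithelium markers and 6 of 6 mesenchyme markers were well above background. Of the 6 skeletal muscle markers Myod1, Pax7 and Actn3 were also above background, while Myog, Myf5 and Ckm were not. Myod1 and Pax7 were dim, at mean control levels of 7.41 and 6.74, and a Mef2d probe at 6.81 passed as well. Passing at such levels is weak evidence that a gene was expressed. Ckm was listed here for skeletal muscle, while the study stained CKM protein as a late SMC marker. As these are bulk samples, fewer cells that express a gene and less RNA per cell cannot be told apart.

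**Figure D1:**
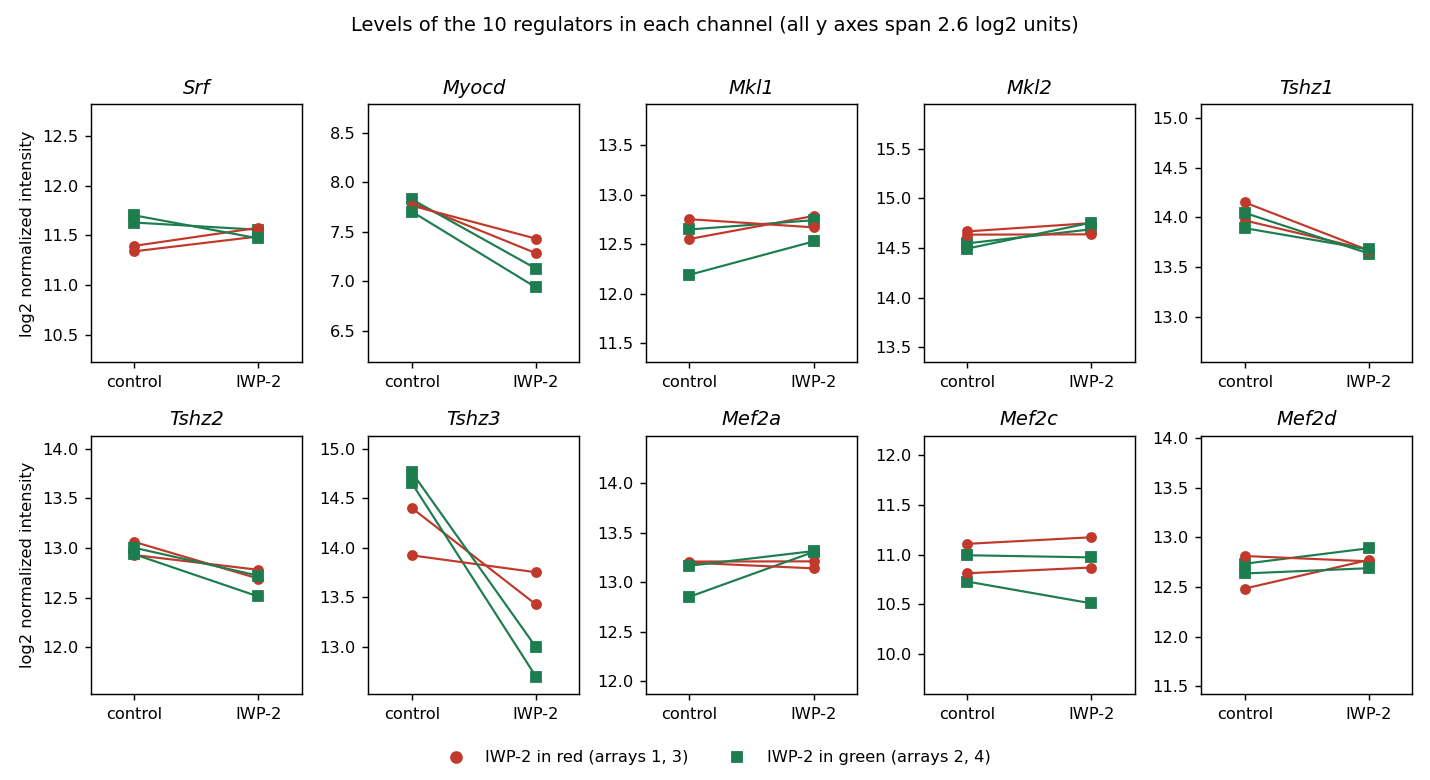
Log2 normalized intensity of each regulator in the control and the IWP-2 channel of the same array, with a line for each array. Circles stand for the arrays with IWP-2 in red and squares for those with IWP-2 in green. For Myocd, Tshz1, Tshz2 and Tshz3 all 4 treated levels lie below all 4 control levels.

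Srf encodes the DNA-binding partner of the myocardin family. Its level was 11.34, 11.63, 11.39 and 11.70 in the control channels of arrays 1 to 4, and 11.49, 11.56, 11.58 and 11.47 in the treated channels. The levels overlapped, and the treated ones lay inside the range of the controls. The ratios were 0.15, -0.073, 0.18 and -0.23, with a mean of 0.0068 ± 0.20 (SD, n = 4). Both arrays with IWP-2 in red were above 0 and both with IWP-2 in green were below, at means of 0.17 and -0.15 for the pairs. The limma estimate had a 95% interval of -0.099 to 0.11 (adjusted p = 0.922). The second Srf probe gave -0.017 ± 0.095, and its interval of -0.12 to 0.083 likewise held 0.

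The Srf promoter is shown because SRF is known to act on its own gene through CArG boxes, which are set in capitals. The sequence holds the 250 bases before the RefSeq start site (GRCm38.p6, minus strand, chr17:46556163-46556412). The matches end 73 and 53 bases before the start.
Srf promoter: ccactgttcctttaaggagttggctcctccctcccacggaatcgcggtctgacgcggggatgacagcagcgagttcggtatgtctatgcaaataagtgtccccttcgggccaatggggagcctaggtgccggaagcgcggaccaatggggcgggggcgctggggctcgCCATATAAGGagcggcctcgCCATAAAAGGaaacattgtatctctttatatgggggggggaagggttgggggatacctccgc

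A promoter entry was found in the RefSeq table for 8 of the 10 regulators, with Mkl1 and Mkl2 listed under their current symbols Mrtfa and Mrtfb. A CArG box, searched by its consensus on both strands, stood within 250 bases before a start in 1 of these 8 genes, Srf, and in 1.47% of 32851 promoters of the table. Among the contractile genes it was found in 2 of 12 with an entry. The consensus MEF2 site was found in 1 of the 8 regulators, at an Mkl2 start, against 2.92% of all promoters. CTTTGA, the core letters that TCF and LEF factors read, was found on either strand in 0 of the 8 and in 13.8% of all. Genes were counted if any of their listed starts had a match, while the shares of all are per promoter, so the figures are not alike. A match is a stretch of letters and no evidence of binding, and no match says nothing of sites outside this window.

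Of the myocardin family, Myocd was the member that changed. Its control levels were 7.79, 7.83, 7.76 and 7.70, and its treated levels were 7.28, 7.13, 7.43 and 6.94. All treated levels lay below all control levels, and the controls varied far less (SD 0.052) than the treated channels (SD 0.21). The ratios were -0.51, -0.70, -0.33 and -0.76, with a mean of -0.58 ± 0.20 (SD, n = 4), so that Myocd fell by 32.9% (limma SE 0.046, adjusted p = 0.000419). Across all genes, 2.00% had a larger fall.

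The Myocd probe was dim, and the size of its change depended on how the background was treated. The processed intensity of the scanner files, which is corrected for background without an offset, ranged from 37.1 to 42.1 with DMSO and from 14.8 to 29.2 with IWP-2. The Myocd probe was flagged as well above background in both channels of 4 of 4 arrays. The dimmest Mef2d probe carried the same flag at processed intensities of 9.53 to 11.6, so the flag alone says little. On processed intensities the Myocd ratios were -0.90, -1.19, -0.53 and -1.36, with a limma estimate of -0.99 (adjusted p = 0.00351). With an offset of 10 instead of 50 the estimate was -0.76 (adjusted p = 0.000604, limma). The authors' table of fold changes gave a value close to that of the processed intensities (adjusted p = 0.0432). The offset of 50 draws the ratio of a dim probe towards 0.

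Mkl1, whose protein is held in the cytoplasm by monomeric actin, did not pass the test. Its control levels were 12.55, 12.65, 12.75 and 12.19, and its treated levels were 12.78, 12.74, 12.67 and 12.53. Apart from the low control level of array 4, these values lay close together. The ratios were 0.23, 0.093, -0.082 and 0.34, with a mean of 0.14 ± 0.18 (SD, n = 4), a 95% interval of -0.017 to 0.31 and an adjusted p of 0.147. The dimmer Mkl1 probe gave 0.018 ± 0.17.

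Mkl2, the other actin-regulated cofactor, had control levels of 14.67, 14.55, 14.63 and 14.49, and treated levels of 14.75, 14.69, 14.64 and 14.76. The lowest treated level lay below the highest control level, so that the groups overlapped narrowly. The ratios were 0.084, 0.14, 0.0032 and 0.26, above 0 on 4 of 4 arrays, with a mean of 0.12 ± 0.11 (SD, n = 4), a 95% interval of 0.020 to 0.23 and an adjusted p of 0.0704. It was the regulator that reached an unadjusted p under 0.05 without passing the test. With trend and robust eBayes the adjusted p was 0.0421, and with the array as a block it was 0.0142, each by limma, so that the call of Mkl2 rests on the fit. For the mean of its probes it was 0.022 (adjusted p = 0.795), and with median centering 0.071 (adjusted p = 0.372). The other Mkl2 probes were dim and went apart: 1 gave 0.072 ± 0.29, and the junction probe printed above gave -0.13 ± 0.17. Neither passed the test.

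The teashirt genes were lower as a group. Tshz3 is the member with a known role in ureteral SMC formation. Its control levels were 14.40, 14.65, 13.92 and 14.76, and its treated levels were 13.43, 12.70, 13.75 and 13.00. All treated levels lay below all control levels, although on array 3 the gap was small. The ratios were -0.97, -1.95, -0.17 and -1.76, with a mean of -1.21 ± 0.81 (SD, n = 4), so that Tshz3 fell by 56.9% (limma SE 0.12, adjusted p = 0.000954). Only 0.49% of all genes had a larger fall.

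No regulator varied as much between arrays as Tshz3, and 99.9% of all genes had a smaller SD. The mean ratio was -0.57 with IWP-2 in red and -1.86 with IWP-2 in green, and the dye term of the fit was 0.64. The processed log2 ratios of the 4 spots of the probe lay between -1.03 and -0.94 on array 1, between -1.99 and -1.94 on array 2, between -0.16 and -0.14 on array 3 and between -1.80 and -1.76 on array 4. The SE of the plain mean was 0.41, against 0.12 after limma had removed the dye effect and shrunk the variance towards that of all genes. Without array 3 the estimate was -1.41 (adjusted p = 7.54e-05), and without a dye term the adjusted p was 0.015. The direction was the same on 4 of 4 arrays, but the size of the Tshz3 fall is known only poorly. What array 3 has of its own was not tested.

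Tshz1 and Tshz2 encode the other members of this repressor family, and both moved by less than Tshz3 in the mean and more evenly. For Tshz1 the control levels were 13.97, 14.04, 14.15 and 13.89, and the treated levels were 13.67, 13.63, 13.67 and 13.68. The treated levels were nearly the same on all arrays. The ratios were -0.30, -0.41, -0.48 and -0.21, with a mean of -0.35 ± 0.12 (SD, n = 4), so that Tshz1 fell by 21.6% (limma SE 0.053, adjusted p = 0.00427).

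For Tshz2 the control levels were 12.93, 12.94, 13.06 and 13.00, and the treated levels were 12.78, 12.51, 12.69 and 12.72. Again the groups did not overlap. The ratios were -0.15, -0.43, -0.37 and -0.28, with a mean of -0.31 ± 0.12 (SD, n = 4), so that Tshz2 fell by 19.2% (limma SE 0.053, adjusted p = 0.00655). The second Tshz2 probe, printed above, gave -0.34 ± 0.065 and also passed the test (adjusted p = 0.00212, limma over all probes). In the authors' table of fold changes, which is rounded, the estimates were -0.37 for Tshz1, -0.32 for Tshz2 and -1.23 for Tshz3, but none passed the test there (adjusted p = 0.0827, 0.113 and 0.0684, limma). In all, 4 of the 10 regulators had treated levels entirely below the control levels, against 11.5% of all genes, and 0 had them entirely above, against 11.0% of all genes.

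**Figure D2:**
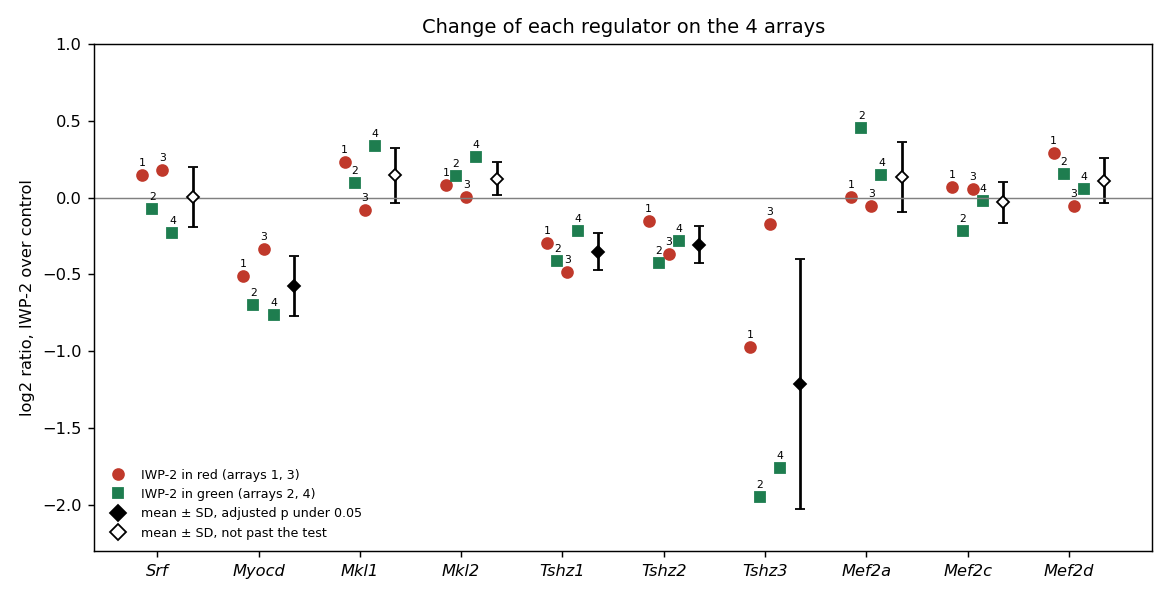
Log2 ratio of IWP-2 over control for each regulator on arrays 1 to 4 (numbered points) with the mean and SD of the 4 arrays (diamonds, filled where adjusted p was under 0.05). The 4 ratios of Myocd, Tshz1, Tshz2 and Tshz3 are all below 0, and those of Tshz3 reach from -0.17 to -1.95.

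None of the MEF2 genes passed the test. Mef2c, the MEF2 gene best known from the heart and from vascular smooth muscle, had control levels of 11.11, 10.73, 10.81 and 10.99, and treated levels of 11.17, 10.51, 10.87 and 10.97. Both groups covered nearly the same range. The ratios were 0.066, -0.22, 0.058 and -0.021, with a mean of -0.029 ± 0.13 (SD, n = 4), a 95% interval of -0.14 to 0.083 and an adjusted p of 0.668.

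Mef2a, a broadly expressed member, had control levels of 13.21, 12.85, 13.20 and 13.17, and treated levels of 13.21, 13.31, 13.14 and 13.31. The low control level of array 2 set it apart from the other controls. The ratios were 0.0022, 0.45, -0.058 and 0.15, with a mean of 0.14 ± 0.23 (SD, n = 4), a 95% interval of -0.0020 to 0.27 and an adjusted p of 0.118. The other Mef2a probes gave 0.11 ± 0.13 and 0.13 ± 0.18, so that the means were alike while the highest array differed from probe to probe. With the array as a block the adjusted p of Mef2a was 0.0468, and without array 4 the estimate was 0.21 (adjusted p = 0.026, limma).

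Mef2d, also broadly expressed, had control levels of 12.49, 12.74, 12.81 and 12.64, and treated levels of 12.77, 12.89, 12.76 and 12.69. The levels overlapped. The ratios were 0.29, 0.16, -0.054 and 0.053, with a mean of 0.11 ± 0.15 (SD, n = 4), a 95% interval of -0.039 to 0.26 and an adjusted p of 0.222. A dimmer probe gave 0.12 ± 0.16, and the dimmest, a junction probe with processed intensities of 9.53 to 11.6, gave -0.022 ± 0.056. Without array 3 the Mef2d estimate was 0.20 (adjusted p = 0.048, limma).

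Of all 19 probes, 5 were lower and 0 were higher, and at an unadjusted p under 0.05 limma placed 1 higher (22.1% of all probes were higher at that threshold). Across the 29933 probes tested, 15.9% were lower and 16.8% were higher. The 5 probes were the single probes of Myocd, Tshz1 and Tshz3 and both probes of Tshz2. The probes of a gene gave the same call for each of the 6 regulators with more than 1 probe. Their means lay farthest apart for Mkl2, from -0.13 to 0.12.

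**Figure D3:**
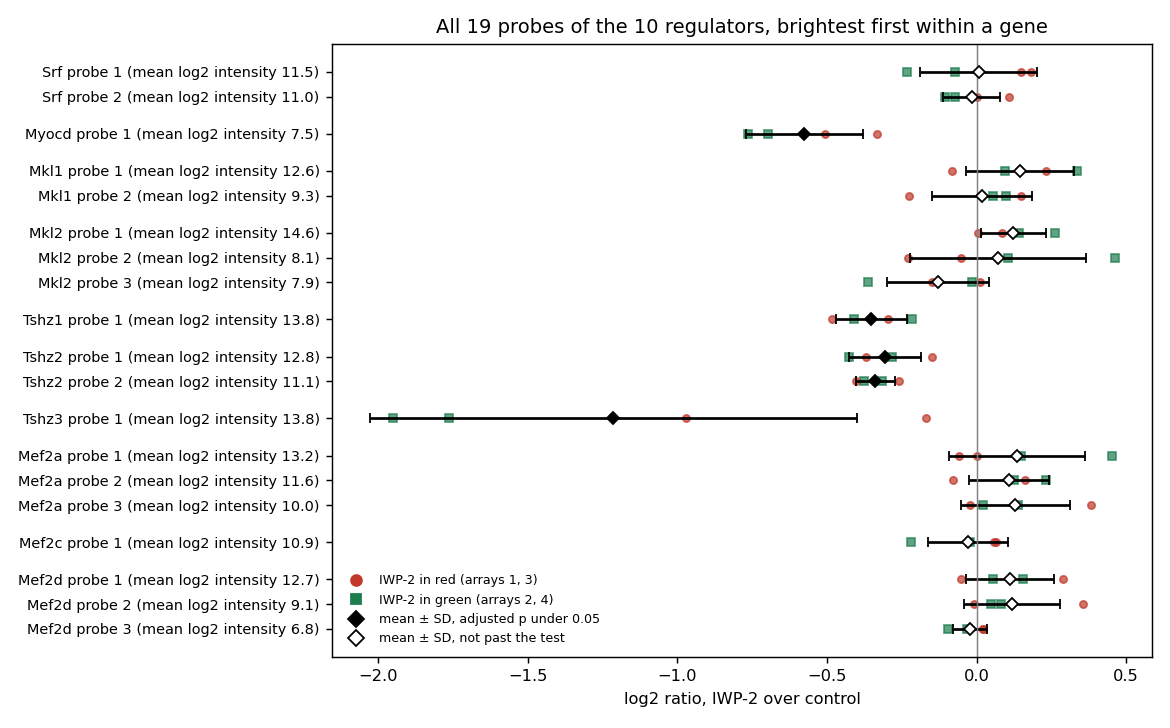
Log2 ratio of IWP-2 over control for all 19 probes, with the 4 arrays as points and the mean and SD as diamonds (filled where adjusted p over all probes was under 0.05). Both Tshz2 probes lie below 0 on all arrays, while the 3 Mkl2 probes lie on both sides of 0.

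Members of a family were also compared directly, as the difference of their ratios on the same array, by an exact two-sided sign-flip permutation test over 4 arrays. With 4 arrays this test cannot go below 0.125, so it can give sizes and directions but no call. In all 9 pairs were compared, and the smallest value after Benjamini-Hochberg correction was 0.562. Myocd was lower than Mkl1 by a mean difference of -0.72 ± 0.35 (SD, 4 of 4 arrays) and lower than Mkl2 by -0.70 ± 0.30 (4 of 4 arrays), each at the smallest p the exact test allows. On processed intensities these differences were -1.17 and -1.13. Mkl1 minus Mkl2 was 0.022 ± 0.11, with a 95% interval of -0.15 to 0.19.

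The difference of Tshz1 minus Tshz3 was 0.86 ± 0.88 and that of Tshz2 minus Tshz3 was 0.91 ± 0.80 (SD, n = 4 arrays). On arrays 1, 2 and 4 Tshz3 was the lower one by 0.68 or more, while on array 3 it was the higher one, by 0.31 and 0.20 (exact permutation p = 0.25 for both). That Tshz3 fell by more than the other teashirt genes was thus seen on 3 of 4 arrays. Tshz1 minus Tshz2 was -0.045 ± 0.10, with a 95% interval of -0.21 to 0.12. Among the MEF2 genes no pair kept its sign on all arrays, and the mean differences were 0.17 for Mef2a minus Mef2c, 0.025 for Mef2a minus Mef2d and -0.14 for Mef2c minus Mef2d.

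With the cut-offs of the study (intensity over 100 and over 2-fold, no test) required here on each of 4 arrays, although the study describes their use on a pair of arrays, 0 of the 10 regulators were lower and 0 were higher, against 105 genes lower and 22 higher of 29924 names. With 1.5-fold as the limit the counts of regulators were still 0 and 0. Tshz3 passed 2-fold on 2 of 4 arrays (2 and 4), where its intensity was also over 100, and 1.5-fold on 3 of 4. Myocd did the same but stayed below an intensity of 100 in the brighter channel of 4 of 4 arrays, so that no fold change could have brought it through.

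**Figure D4:**
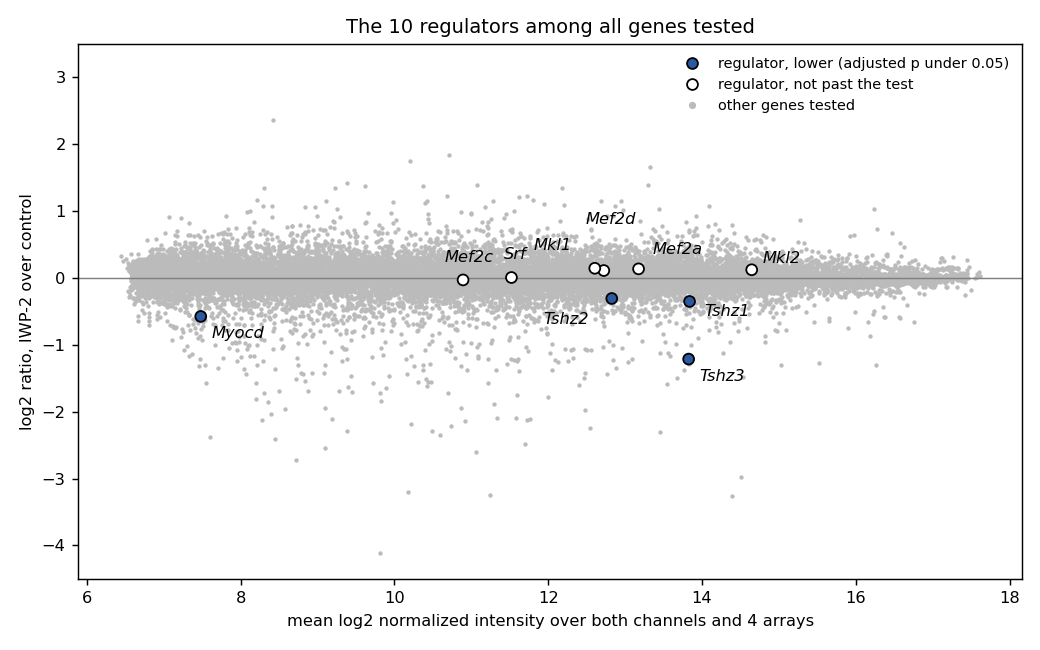
Mean log2 normalized intensity (x axis) against the log2 ratio of IWP-2 over control (y axis) for all 22455 genes tested (grey) and the 10 regulators (large points, blue where lower with adjusted p under 0.05). Myocd lies at the dim end at a mean intensity of 7.48, and Tshz3 at 13.8 with a ratio of -1.21.

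The partners and opponents of these factors did not move as 1 group. Of the ternary complex factors, Elk3 rose by 0.30 ± 0.034 (adjusted p = 0.0025) and Elk1 by 0.14 ± 0.082 (adjusted p = 0.0377), while Elk4 had 0.0026 ± 0.087 (limma, SD of 4 arrays). The Elk1 call was lost in 10 of the 16 alternative settings, at values down to 0.031. Of 8 coactivators of SRF, myocardin or MEF2, 7 were tested. Of these, 4 were lower and 0 were higher, against 15.0% and 18.1% of all genes. Their median ratio was -0.14. Csrp1, a LIM protein that bridges SRF and GATA factors, had the largest fall with -0.36 ± 0.034, followed by Fhl2, another LIM cofactor, with -0.29 ± 0.14. Csrp1 passed in all 16 alternative settings and Fhl2 in all but the authors' rounded table. Tead1, which binds MCAT elements of muscle genes, had -0.24 ± 0.20, and Gata6, a zinc finger factor of smooth muscle, had -0.14 ± 0.022. The call of Gata6 was lost in 7 of 16 settings, among them each array left out (adjusted p = 0.0808 to 0.131, limma). That of Tead1 was lost in 6, among them array 2 or array 3 left out (-0.22 and -0.16), so that the count of 4 depends on the setting.

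Of 8 inhibitors, 2 were lower, 3 were higher and 3 did not pass, where 15.0% of all genes were lower and 18.1% were higher. Hopx, a homeodomain protein without DNA binding that blocks SRF, had -1.201 ± 0.30 (adjusted p = 3.2e-05, limma), and Hdac9, which represses MEF2, had -0.31 ± 0.14. Hdac5, another MEF2 repressor, rose by 0.32 ± 0.11, and Klf4, which competes with myocardin at contractile promoters, had 0.26 ± 0.20 and passed the test (adjusted p = 0.0282, limma). The Klf4 call was lost without array 1 (0.16) or array 2 (0.24), on processed intensities and in the authors' table. The remaining gene that was higher, chosen after its values were seen, was Hdac7, a class II deacetylase, with 0.24 ± 0.16. Hdac7 and Hdac9 missed the threshold in the authors' table.

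Among the target genes, the contractile list had 11 of 14 tested genes lower and 1 higher, against 15.0% and 18.1% of all genes. Its median ratio was -0.39. Cnn1 (calponin) had -0.98 ± 0.29, Actg2 (gamma smooth muscle actin) -0.87 ± 0.38, Tagln (transgelin) -0.73 ± 0.23 and Mylk (myosin light chain kinase) -0.46 ± 0.15 (SD, n = 4). The gene that was higher, named after its values were seen, was Smtn (smoothelin) with 0.13 ± 0.098, and this call was lost in 11 of 16 settings, each array left out among them. Averaged over its probes Mylk had -0.25. From the authors' rounded table, 1 of these genes was lower and 0 were higher. The immediate early SRF targets were mixed. Cyr61 was lower with -0.44 ± 0.11, and Junb and Fosb were higher with 0.23 ± 0.080 and 0.15 ± 0.048. The probes of Junb and Fosb were dim, at mean control levels of 7.58 and 8.07, near the 7.77 of Myocd. Egr1 and Fos had -0.035 ± 0.14 and 0.031 ± 0.081. The Fosb call was lost without array 1, 3 or 4 (adjusted p = 0.0925 to 0.141, limma), and on processed intensities Junb had 0.38 and Fosb 0.23. Fos passed in the authors' table with 0.069. That table is rounded to 1 decimal, and 30.3% of its probes had an SD of 0 over the arrays, so this pass says little. The difference between these lists was not tested.

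Of 8 UM regulators that act upstream of SMC differentiation, 7 were lower and 0 were higher, against 15.0% and 18.1% of all genes. Foxf1 and Bmp4 had -2.24 ± 0.31 and -1.31 ± 0.12, and Tbx18 and Sox9 had -0.74 ± 0.26 and -0.57 ± 0.58 (SD, n = 4). Sox9 varied widely between arrays, with -1.05, 0.23, -0.95 and -0.53 on arrays 1 to 4, so that it was higher on array 2. Its call was lost without a dye term and, as that of Tbx18, in the authors' table.

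**Figure D5:**
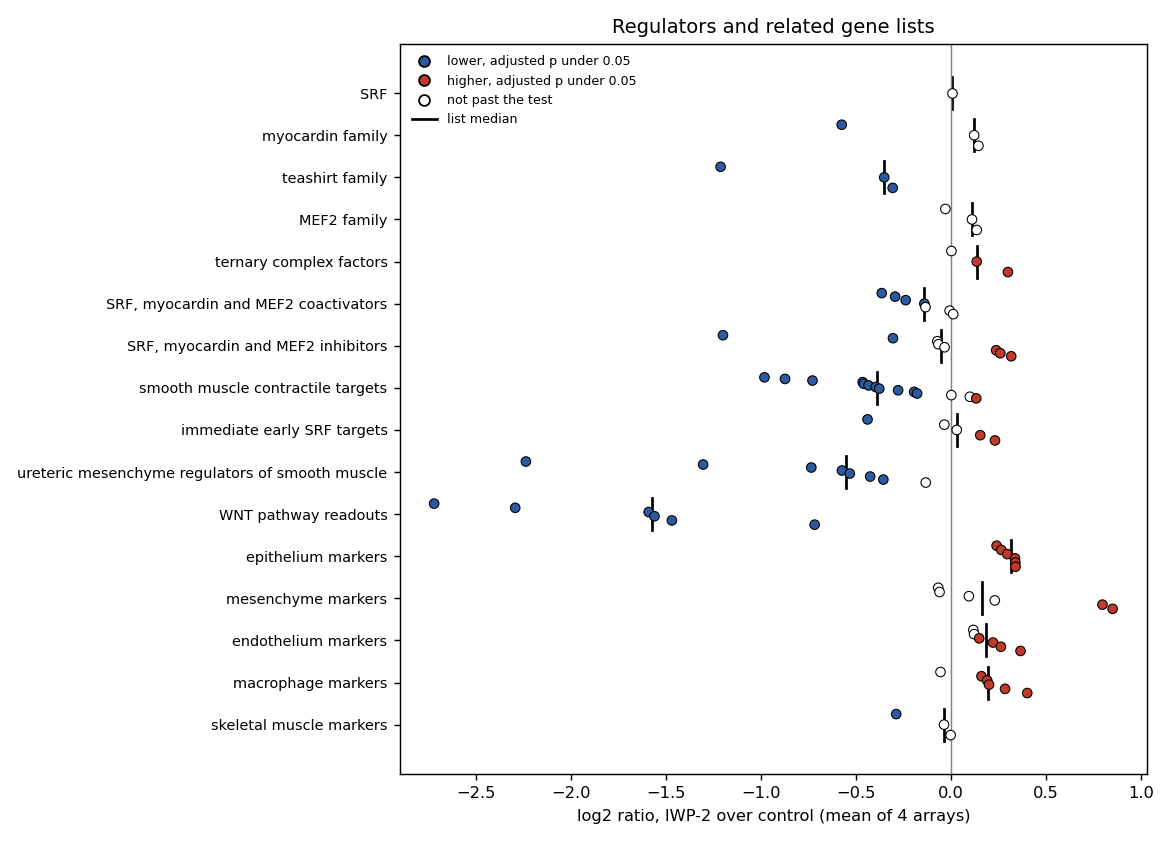
Mean log2 ratio of IWP-2 over control for each gene (points, blue lower and red higher with adjusted p under 0.05, white not past the test) of the 4 groups of regulators and 12 related lists, with the list median as a bar. The teashirt genes, the contractile targets, the UM regulators and the WNT readouts have medians below -0.3.

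For 3 regulators the genes with the most similar ratios were looked up among 91 genes of the related lists, by the root mean square difference over 4 arrays. For Myocd these were Notum, Tpm2 and Csrp1, at 0.20, 0.21 and 0.26. For Mef2c they were Hdac4, Myod1 and Smarca4, at 0.057, 0.063 and 0.073. For Srf they were Tie1, Mamstr and Des, at 0.12, 0.13 and 0.14, and none of these 6 genes passed the test. With 4 arrays such a ranking is a description of these values.

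Markers of other cell types moved in the same samples. Their counts are to be read against 15.0% of all genes lower and 18.1% higher. The epithelium markers rose, 6 of 6 passing the test at a median ratio of 0.32, and their summed intensity was 167756 to 178841 with DMSO and 189785 to 237836 with IWP-2. Of the endothelium markers 4 of 6 (Cldn5, Cdh5, Pecam1 and Kdr) were higher (53074 to 61263 against 60619 to 70897), and of the macrophage markers 5 of 6, Cd68 and C1qb foremost (13707 to 16770 against 15749 to 18394). The Kdr call was lost in 9 of 16 settings, and that of Pecam1 without array 3 or 4 and in the authors' table. The C1qa call was lost in 3 of 16 settings: without a dye term, with the array as a block and without array 1. That of Aif1 was lost without array 1 or array 2. Cd68, C1qb, Cdh5, Krt8 and Krt18 missed the threshold in the authors' table. Of the mesenchyme markers 2 of 6, Twist1 and Pdgfrb, were higher and 0 were lower (340775 to 372438 against 375265 to 412607). The brightest genes weigh most in this sum: Col3a1, Col1a1 and Vim, at mean control levels of 16.85, 16.57 and 16.20. They had -0.067 ± 0.066, 0.23 ± 0.33 and 0.095 ± 0.093, and Pdgfra had -0.060 ± 0.22. None of these passed the test, and all were named after their values were seen. Of the skeletal muscle markers 3 of 6 were tested and 1, Actn3, was lower, at summed intensities of 766 to 890 and 643 to 816 for the list. Actn3 had -0.29, and -0.19 without array 1, and was above 0 on array 3 (0.083). Its call was lost without a dye term, on processed intensities and in the authors' table. The falls of Myocd and the teashirt genes stood beside these rises, and the part of cell composition in them was not tested.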

How the data were processed

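RNA from pools of E12.5 ureter explants was compared on 4 two-color Agilent arrays. The authors ran Agilent Feature Extraction 10.7.3.1, and the deposited scanner files give raw and processed intensities for each spot. The deposited log10 ratio of each spot followed the ratio of processed red over green (r between 0.935 and 1.00). This cannot check which dye held the treated RNA. The authors' series table holds signed fold changes rounded to 1 decimal, with unstated normalization, and served as an alternative. It followed the processed treated over control ratios at r of 0.987 to 0.992, with a median log2 of 0 in each column.

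Raw intensities were corrected with normexp (offset 50, all spots) and normalized by loess (span 0.3) in limma 3.58.1 (R 4.3.3). Control spots and outlier spots (3.01% to 3.38% of gene spots) were left out, and the spots of a probe were averaged. The offset draws ratios of dim probes towards 0. Channel levels were taken after Aquantile. No spot was saturated.

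A probe was tested if more than 0.5 of its spots were well above background on 4 of 4 arrays, in either the DMSO or the IWP-2 RNA. The brightest probe stood for a gene. limma was fitted on 4 arrays with a dye term, with Benjamini-Hochberg correction over 22455 genes or 29933 probes. On data simulated for this comparison with 22455 genes it recovered 95.5% of 67 genes changed by 0.3 (log2), and 100% of 67 changed by 0.6. The simulated noise was normal, with variances already shrunk by limma, and far fewer genes were changed than were called in the data. These shares therefore do not give the power for a regulator that did not pass. The labels do not say whether pools came from separate litters, so p-values measure the spread between these samples. The number of arrays limits the precision.

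The study's methods name no test for arrays. The regulators, gene lists, tests and alternatives were chosen with earlier results of these data known. Named are all regulators, up to 4 genes past the test with the largest changes in each other list, all ternary complex factors and immediate early genes, and the 3 nearest genes of Myocd, Mef2c and Srf. Sequences come from the scanner files and, for promoters, from RefSeq (GRCm38.p6). Results of 2 further gene lists are not reported here.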

Additional observations from a re-analysis of the deposited data

Results flagged for a closer look

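Of 75 probes examined (all regulator probes and the named genes), 2 had 1 array that stood far from the other 3. By chance this happens in about 1 in 20 groups of 4 arrays. For Klf4, array 3 had a log2 ratio of -0.036, while the other arrays lay between 0.32 and 0.39. For Bmp4, array 1 had -1.13, while the others lay between -1.37 and -1.35. No probe of the 10 regulators was among them, Tshz3 included, since its arrays 1 and 3 were also apart from each other.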

How the results depend on the processing

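The number of regulators that were lower was 4 in all settings except 2. It was 3 when a processed intensity over 100 was required, which removes Myocd, and 1 in the authors' rounded table of fold changes, where Myocd stayed and Tshz1 (-0.37), Tshz2 (-0.32) and Tshz3 (-1.23) missed the threshold. The number that were higher was 0, but 1 with trend and robust eBayes (Mkl2, 0.12), and 0 to 1 when an array was left out. With the array as a replicate block over 8 channels it was 2 (Mkl2, 0.12, and Mef2a, 0.14), and this block also raised the calls over all genes from 3362 lower and 4069 higher to 4619 and 5180. It changed no other call of a regulator. The authors' table gave 2050 and 1833 over all genes, and leaving out array 3 gave 2180 lower. Of the contractile genes 11 were lower, and 1 in the authors' table. The 1 that was higher, Smtn, became 0 with an offset of 10, median centering, processed intensities, no dye term, the mean of probes, outlier spots kept, the authors' table, and every time an array was left out (0 to 0).

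Estimates near 0 changed sign. Srf was -0.0069 with median centering and -0.0051 for the mean of probes, and -0.033 to 0.047 with an array left out. Mef2c was 0.0052 on processed intensities and 0.0030 in the authors' table, and -0.079 to 0.020 with an array left out. With an array left out Mkl1 was 0.066 to 0.22, Mkl2 0.093 to 0.15, Mef2a 0.060 to 0.21, Mef2d 0.025 to 0.20, Myocd -0.62 to -0.53, Tshz1 -0.40 to -0.30, Tshz2 -0.36 to -0.25 and Tshz3 -1.41 to -1.01. The family differences with an array left out were plain means of the arrays kept, while these estimates came from limma with a dye term. The differences ran from -0.020 to 0.058 for Mkl1 minus Mkl2, -0.88 to -0.59 for Myocd minus Mkl1 and -0.82 to -0.59 for Myocd minus Mkl2. For Mef2a minus Mef2c they were -0.0035 to 0.26, for Mef2a minus Mef2d -0.065 to 0.13 and for Mef2c minus Mef2d -0.22 to -0.062. For Tshz1 minus Tshz2 they were -0.082 to -0.010, for Tshz1 minus Tshz3 0.63 to 1.25 and for Tshz2 minus Tshz3 0.70 to 1.28. Elk4 was -0.0062 for the mean of probes and -0.047 to 0.052 with an array left out. Mamstr was 0.016 with median centering, 0.0087 on processed intensities, 0.010 with scale normalization and -0.070 to 0.057 with an array left out. Smarca4 was -0.054 with median centering, -0.034 in the authors' table and -0.029 to 0.053 with an array left out. Hdac4 was 0.014 for the mean of probes, and with an array left out Egr1 was -0.094 to 0.024 and Myod1 -0.095 to 0.022. The cause was not tested.

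The slide and the scan could not be used as a block, since all arrays lie on 1 slide and in 1 scan. Signal over background limits Myocd most among the regulators that changed.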
